A study of Mus musculus with 6 samples.

Results

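The genes described here are the semaphorins, plexins, neuropilins, netrins, Unc5 receptors, Slits and Robo receptors, measured in 6 cultured lines of mouse neural stem cells. They were found by gene symbol in the platform annotation, and 49 of the 18193 genes with a probe set of their own matched. Of these, 46 are guidance genes. The other 3 were caught by spelling only: Unc50 is an unrelated protein of the secretory pathway, Unc5cl is a death-domain protein that is no netrin receptor, and Plxna4os1 is an antisense transcript. Each gene is tested by its brightest probe set, and dimmer probe sets are described for some genes. Signals of different probe sets are not read as relative amounts of RNA.

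There were 3 lines with the label FoxO-null and 3 with the label wild-type, called independent by the labels, and each gave 1 array. Neural stem cells are dividing brain cells that can form neurons, astrocytes and oligodendrocytes, and FoxO proteins are transcription factors held out of the nucleus when insulin signalling is active. Neither the deleted FoxO genes nor the means of deletion, brain region, age or strain is given in the labels, and no treatment is named. Values are MAS5 signals that the authors had scaled to a common mean. Because each array holds RNA of a whole culture, fewer cells of a type and less RNA per cell cannot be told apart.

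Semaphorins are secreted or membrane-bound cues that steer growing axons and migrating cells. They are read by plexins, which for most secreted semaphorins work together with neuropilins. Netrins attract through Dcc and neogenin and repel through Unc5 receptors, and Slits repel through Robo receptors. In the forebrain these systems are best known for axon pathfinding and for guiding young neurons out of the ventricular zone, and several members are also made by oligodendrocyte-lineage cells.

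The FoxO genes themselves did not have lower signals where the label is FoxO-null. Of 9 probe sets for Foxo1, Foxo3 and Foxo4, 8 had a positive log2 fold change, and in 5 every FoxO-null array exceeded every wild-type one. The brightest Foxo1 probe set read 77.9, 77.8 and 100.3 in lines 1 to 3 labelled FoxO-null and 20.3, 20.4 and 31.7 in lines 1 to 3 labelled wild-type. Whether these probes fall in deleted sequence was not determined, and those that do not cannot check the label. Each direction below follows the labels, and every sign would turn if the labels were exchanged, which was not tested. All 14 measured neural stem and progenitor markers (of 15 listed, among them Nes, Sox2 and Msi1) stood above background on all 6 arrays. Background is the highest Bacillus control probe set of an array. It lay between 19.2 and 27.6 on arrays labelled FoxO-null and between 14.4 and 19.1 on arrays labelled wild-type, so it moved with the label.

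Most plexins, both neuropilins and most netrins stood above background on every array, and few secreted semaphorins and no Slit did. In all, 29 of the 49 genes stood above background on all 6 arrays and 6 on none. The 29 held 8 of 9 plexins, both neuropilins, 3 of 4 netrins (Ntn1, Ntn3 and Ntn4) and 11 of 20 semaphorins. Of the 7 secreted class 3 semaphorins, Sema3a and Sema3f were among them. Unc5b and Unc5c of 4 Unc5 receptors, Robo1 of 4 Robo receptors and 0 of 3 Slits were above background throughout. Slit1 was above it on 3 of 3 arrays labelled FoxO-null and 1 of 3 labelled wild-type, Slit2 on 2 and 3 of them, and Slit3, Sema3e and Sema3g on none. After the filter on low signals, which removed genes whose mean log2 level was below that of a signal of 16.2, 37 genes were tested. The other 12 were Sema3b, Sema3d, Sema3e, Sema3g, Sema4f, Sema6b, Ntn5, Unc5a, Unc5d, Robo2, Slit3 and Plxna4os1, with signals between 0.377 and 52.2.

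No guidance gene passed the test between the lines labelled FoxO-null and those labelled wild-type. With limma, 0 of 37 genes had a Benjamini-Hochberg adjusted p under 0.05 over all 12663 genes tested, where 0.0395% of all genes did (0.0316% on the higher and 0.0079% on the lower side). The smallest adjusted p among them was 0.213. An unadjusted limma p under 0.05 was reached by 5 of the 37 (13.5%), against 10.2% of all genes. Of these 5, Plxna4, Sema5a, Sema4d and Slit1 had higher signals in the lines labelled FoxO-null (5.31% of all genes were called higher) and Plxna2 had lower ones (4.9% of all genes). The 3 arrays of one group lay wholly above the 3 of the other in 6 of the 37 genes, or 16.2%, against 16.0% of all genes. Plxna4, Sema4d, Slit1, Plxnb3 and Unc5cl lay higher in the lines labelled FoxO-null (13.5%, against 8.08% of all genes) and Plxna2 lower (2.7%, against 7.93%). The 37 include 2 genes caught by spelling only, Unc50 and Unc5cl, so Unc5cl adds to the higher share without being a guidance gene. Plxna4 and Slit1 had wild-type means of 4.39 and 4.23 on the log2 scale, under the filter at 4.47. They entered the 37 only through the lines labelled FoxO-null, where they are high, and they add to the higher side of both counts. The higher shares are therefore not read as a result about guidance genes. The shares over both directions are close to the background. The 37 log2 fold changes had a median of -0.037, with 18 above 0, and that of all genes was 0.0099. An exact two-sided permutation test of 3 lines against 3 cannot give a p under 0.1.

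**Figure D1:**
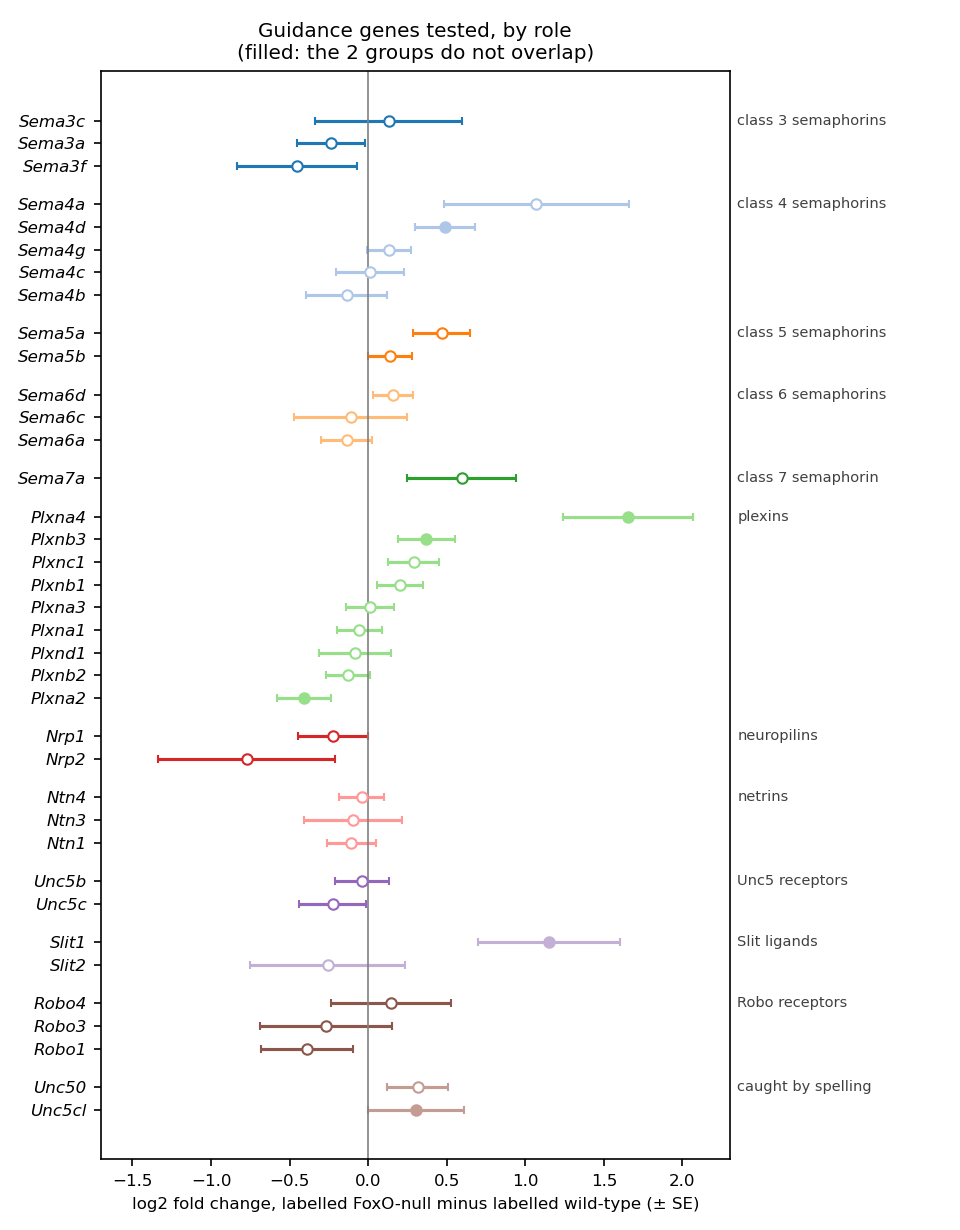
Difference in log2 level between the labels, FoxO-null minus wild-type, for the 37 genes tested, grouped by role (points, with bars of 1 standard error of the limma fit). Filled points mark the 6 genes whose groups do not overlap. The values run from -0.77 for Nrp2 to 1.65 for Plxna4, and none passed after adjustment.

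Among the plexins, Plxna4 had the fold change farthest from 0, set against wild-type signals at background. Plxna4 is a receptor for class 6 semaphorins and, with neuropilins, for class 3 semaphorins. It read 41.3, 88.4 and 57.9 in the 3 lines labelled FoxO-null, against 10.3, 31.3 and 9.20 in the 3 labelled wild-type. All 3 arrays labelled FoxO-null were above their background and above every array labelled wild-type, of which 1 was above its own background. The log2 fold change was 1.65 ± 0.42 (SE), with a limma adjusted p of 0.213 over all genes, and its unadjusted p stayed under 0.05 in each fit that left out 1 array. Its wild-type mean of 4.39 on the log2 scale was under the filter at 4.47, so Plxna4 was tested only through its level in the lines labelled FoxO-null. A second, dimmer Plxna4 probe set overlapped between the groups (12.2, 24.0 and 25.8 against 4.09, 26.6 and 14.4).

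Plxna2, a receptor that binds Sema6a, lay on the other side of 0. Its signals were 189.8, 252 and 273 in the lines labelled FoxO-null and 291, 385 and 279 in those labelled wild-type. The groups did not overlap, but FoxO-null 3 and wild-type 3 were close together. The log2 fold change was -0.41 ± 0.17 (limma adjusted p 0.444). Leaving out FoxO-null 1 gave -0.26 and leaving out wild-type 2 gave -0.27, and its unadjusted p was then no longer under 0.05. All 4 Plxna2 probe sets were negative, between -0.78 and -0.33, and the groups were apart in 2 of them.

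Plxnb3, a plexin of oligodendrocyte-lineage cells that has been reported to bind Sema5a, read 163, 125 and 136 in the lines labelled FoxO-null, against 88.9, 123 and 112 in those labelled wild-type. The groups did not overlap, though FoxO-null 2 and wild-type 2 differed by little (log2 fold change 0.37 ± 0.18, limma adjusted p 0.520). The other Plxnb3 probe set was further apart, with 167, 115 and 166 in the lines labelled FoxO-null and 102, 102 and 87.8 in those labelled wild-type. Plxnc1, the receptor of Sema7a, read 185, 176 and 138 in the lines labelled FoxO-null, against 126, 129 and 148 in those labelled wild-type. On this brightest probe set the groups overlapped (0.29 ± 0.16, limma adjusted p 0.585), whereas 3 of its 6 probe sets had all arrays labelled FoxO-null higher. Plxnb2, which acts in developing neural progenitors, overlapped too, with 881, 747 and 852 in the lines labelled FoxO-null and 747, 1086 and 906 in those labelled wild-type. The remaining plexins, Plxna1, Plxna3, Plxnb1 and Plxnd1, had overlapping groups on their brightest probe sets and log2 fold changes between -0.084 and 0.20. The second probe sets of Plxnb1 (192, 154 and 166 against 140.2, 131 and 123) and Plxna1 (39.98, 39.0 and 45.6 against 31.8, 31.9 and 24.9) had the lines labelled FoxO-null wholly higher, with limma adjusted p of 0.649 and 0.830.

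Of the 20 semaphorins, 14 were tested, and 9 of the 14 were above 0. Sema5a is a membrane cue with thrombospondin repeats. Its signals were 136, 183 and 168 in the lines labelled FoxO-null and 105.5, 141.5 and 101 in those labelled wild-type. FoxO-null 1 lay just below wild-type 2, so the groups overlapped on this probe set (log2 fold change 0.47 ± 0.18, limma adjusted p 0.412). All 4 Sema5a probe sets were positive, between 0.47 and 0.79, and 2 of the dimmer ones had groups apart. One of them read 71.8, 61.3 and 69.2 against 37.1, 34.9 and 43.5, in the same order of groups. Its relative Sema5b overlapped, with 299, 263 and 298 in the lines labelled FoxO-null and 223.5, 266 and 293 in those labelled wild-type.

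Sema4d is a transmembrane ligand of plexin-B1 that oligodendrocytes express. It read 106.5, 98.6 and 122 in the lines labelled FoxO-null, against 68.5, 68.8 and 91.9 in those labelled wild-type. Every array labelled FoxO-null was higher, with wild-type 3 the nearest (0.49 ± 0.19, limma adjusted p 0.412). A second Sema4d probe set showed the same order near background, with 27.8, 31.3 and 33.5 against 4.14, 18.1 and 5.39, and the third overlapped. Sema4d and Sema5a each kept an unadjusted p under 0.05 in 2 of the 6 fits that left out 1 array. Sema4a, at 48.0, 14.4 and 35.3 in the lines labelled FoxO-null and 4.95, 5.09 and 34.7 in those labelled wild-type, had arrays below background in both groups (1.07 ± 0.59, limma adjusted p 0.566). Sema4g showed little spread between lines, with 174, 163 and 185 in the lines labelled FoxO-null and 154, 149 and 171 in those labelled wild-type.

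Sema6d, a membrane ligand of plexin-A1, was at 1337, 1427 and 1295 in the lines labelled FoxO-null and 1019, 1248 and 1392 in those labelled wild-type. The groups overlapped, at a log2 fold change of 0.16 ± 0.13. Sema7a, the lipid-anchored ligand of plexin-C1 and integrin beta-1, read 50.8, 41.7 and 60.1 in the lines labelled FoxO-null, against 41.8, 16.1 and 43.5 in those labelled wild-type. Its lower wild-type mean came largely from wild-type 2, and the fold change was 0.60 ± 0.35 (limma adjusted p 0.597). Sema3a, the secreted cue that binds neuropilin-1, was at 69.9, 59.2 and 92.4 in the lines labelled FoxO-null and 76.8, 103 and 82.5 in those labelled wild-type, overlapping (-0.24 ± 0.22). A dimmer Sema3a probe set had the lines labelled FoxO-null lower, at 23.2, 50.6 and 21.0 against 56.1, 65.8 and 60.8, with a limma adjusted p of 0.588 over all 45037 non-control probe sets.

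**Figure D2:**
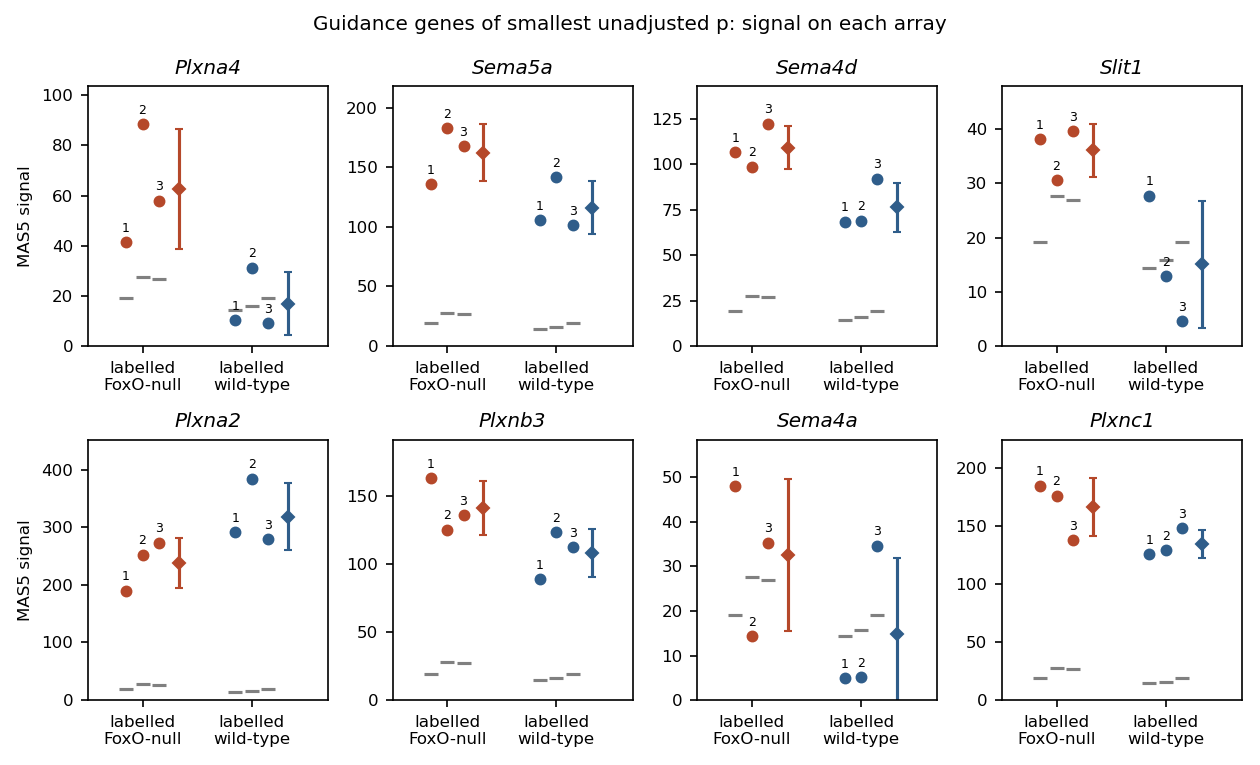
MAS5 signal on each array (linear axis from 0) for the 8 guidance genes of smallest unadjusted p. Numbered points are lines 1 to 3, diamonds with bars are mean ± SD (n = 3), and grey dashes are each array's background. Plxna4 and Slit1 have wild-type arrays at or under background, Sema4a has arrays under it in both groups and an SD bar that reaches the axis, and the other 5 genes are above it on all 6 arrays.

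The Slit and netrin systems held 1 gene at an unadjusted p under 0.05. Slit1, a repellent for migrating neuroblasts, read 38.1, 30.5 and 39.5 in the lines labelled FoxO-null, against 27.7, 12.8 and 4.61 in those labelled wild-type. The groups were apart by a narrow margin, and 2 of the 3 wild-type arrays were under background (1.15 ± 0.45, limma adjusted p 0.412). Like Plxna4 and Sema4a, it passed the filter through the lines labelled FoxO-null, with a wild-type mean of 4.23 on the log2 scale, and a filter at the 50th percentile removed it. In the 6 fits that each left out 1 array the log2 fold change lay between 0.73 and 1.57, with an unadjusted p under 0.05 in 2 of them. Slit2 overlapped widely, with 26.2, 47.1 and 6.75 in the lines labelled FoxO-null and 31.9, 22.1 and 29.0 in those labelled wild-type, and its sign turned without FoxO-null 3 (-0.26 with all arrays, 0.31 without it). Robo1, a Slit receptor, read 80.2, 97.7 and 44.4 against 65.4, 113 and 113, again in that order of groups, and overlapped (-0.39 ± 0.29). Robo3, a Robo receptor of commissural axons, was above background on 0 of 3 arrays labelled FoxO-null and on 3 of 3 labelled wild-type, but that background was itself higher in the lines labelled FoxO-null.

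Brightest netrin probe sets all had overlapping groups. Ntn1, the founding netrin, read 250.1, 321 and 336 in the lines labelled FoxO-null, against 383, 291 and 304 in those labelled wild-type. Its log2 fold change of -0.11 ± 0.15 took a positive sign without FoxO-null 1 or wild-type 1. Ntn4, a basement membrane netrin, was at -0.042 ± 0.14 and Ntn3 at -0.096 ± 0.31. A dimmer Ntn4 probe set had the lines labelled FoxO-null lower, at 153, 123 and 134 against 156, 158 and 167 (limma adjusted p 0.802). The repulsive netrin receptor Unc5b read 113, 154 and 164 in the lines labelled FoxO-null and 141, 157 and 140.1 in those labelled wild-type, and its relative Unc5c was at -0.23 ± 0.21, or 0.49 ± 0.39 by a dimmer probe set. Both overlapped, and the sign of Unc5b also turned when FoxO-null 1 or wild-type 2 was left out. Outside the 8 genes of smallest p, the 29 other tested genes had log2 fold changes between -0.77 and 0.60 and limma adjusted p between 0.597 and 0.993.

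Counting every probe set, 16 of the 108 that target these genes had all arrays labelled FoxO-null higher (14.8%, against 6.95% of all 45037 non-control probe sets), and 5 had them lower (4.63%, against 5.67%). Probe sets of a gene share its transcripts and are not separate evidence. The 45037 include 9160 with no gene, which the 108 do not, and neither set was filtered for low signals. Among the 16 are Slit3, above background on no array, and Unc5cl, caught by spelling only. In 34 genes with 2 or more probe sets, 4 (Sema5a, Sema4d, Plxnb3 and Plxnc1) had at least 2 probe sets apart on the higher side. On the lower side 1 (Plxna2) had 2. The share of all genes with such a pattern was not counted, so whether these counts are unusual is not known. At an unadjusted limma p under 0.05 there stood 12 of the 108 (11.1%, against 7.24% of all probe sets), and the smallest adjusted p was 0.372. When a gene's level was taken as the mean of all its probe sets, 8 genes had an unadjusted limma p under 0.05. They were the 5 above with Plxnb1, Plxnb3 and Plxnc1, and again 0 passed after adjustment. The share of all genes at that p under this rule is not given here, so the 8 are not read as a result about guidance genes.

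The summed signal of oligodendrocyte-lineage markers differed with the same labels, though not for every marker. Of its 10 listed markers 9 were measured and 8 stood above background on all arrays, while Mog, of mature myelin, was above it on none. Their summed signal ran from 17159.6 to 17913 in the lines labelled FoxO-null and from 13866 to 15421 in those labelled wild-type. These sums do not stay apart without Mbp. It read 4141, 4846 and 4302 in the lines labelled FoxO-null, against 3612, 2463 and 2853 in those labelled wild-type. Of 8 tested, 5 were higher at an unadjusted limma p under 0.05, where 5.31% of all genes were. After adjustment 1 of the 8 had a limma p under 0.05, where 0.0395% of all genes did. Olig1 (6226, 6401 and 7482 against 6694, 6887 and 7716) and Olig2 (1730.4, 1856 and 1482 against 1936, 1848 and 1939.6) overlapped, with FoxO-null means the lower. The 9 astrocyte markers summed to between 7189.6 and 8420.1 in the lines labelled FoxO-null and between 4848 and 6271 in those labelled wild-type, with 5 higher at that p. The 12 neuron markers summed to between 2399 and 2648 in the lines labelled FoxO-null and between 2885 and 3294 in those labelled wild-type, but without Gap43 the other 11 overlapped (1685 to 1747 against 1591 to 1977), and 6 of the 12 log2 fold changes were positive. The 9 measured markers of dividing cells summed to between 9196 and 10199 in the lines labelled FoxO-null and between 11864 and 12802 in those labelled wild-type. Of these 9, 8 were lower at an unadjusted limma p under 0.05, where 4.9% of all genes were, and 0 log2 fold changes were positive. Of the 14 tested neural stem and progenitor markers, 4 were higher and 1 was lower at that p, and 1 had a limma adjusted p under 0.05. Pecam1 and Tek of the endothelial list and Aif1, Itgam, Tyrobp, Fcer1g and Ptprc of the microglial list were above background on no array. By contrast, Csf1r of the microglial list was above it on all 6. Of the 8 endothelial markers 0 were above background on all arrays, but Kdr was above it on 5. What part these markers' cells have in the values of Sema4d, Plxnb3, Sema5a or Plxna4 was not tested.

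The RefSeq promoter table (build GRCm38.p6, 250 bases before to 50 after each start) held 53 windows for 40 of the 49 genes, and none for Plxna4 or Slit1. The FoxO element GTAAACA was searched on both strands, the other strand reading TGTTTAC, and was in 0 of the 53 windows, against 3.65% of all 32851 windows. Its variant GTAAATA, or TATTTAC on the other strand, was in 3, those of Sema4d, Slit2 and Unc50 (5.66%, against 3.04%). The GC box GGGCGG, or CCGCCC on the other strand, was in 67.9% of the windows, against 35.7% of all. A match is a description and not a binding site. Shown are the windows of 3 genes that had an unadjusted p under 0.05, with higher signals in the lines labelled FoxO-null for Sema5a and Sema4d and lower ones for Plxna2, 5′ to 3′ on the gene's strand, with these motifs in capitals. Sema5a has 5 GC boxes, some of which run together, Plxna2 has 2, and Sema4d is shown by the 1 of its 3 windows that holds GTAAATA, read here as TATTTAC. They lie on chr15:32244563-32244862 (+) for Sema5a, chr1:194619579-194619878 (+) for Plxna2 and chr13:51748761-51749060 (-) for Sema4d.
Sema5a: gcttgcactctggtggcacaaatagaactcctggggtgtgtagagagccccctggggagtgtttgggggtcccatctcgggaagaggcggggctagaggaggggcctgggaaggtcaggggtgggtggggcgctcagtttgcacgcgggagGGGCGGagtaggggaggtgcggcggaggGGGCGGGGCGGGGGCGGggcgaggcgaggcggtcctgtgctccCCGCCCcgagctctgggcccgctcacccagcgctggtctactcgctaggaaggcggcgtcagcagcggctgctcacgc
Plxna2: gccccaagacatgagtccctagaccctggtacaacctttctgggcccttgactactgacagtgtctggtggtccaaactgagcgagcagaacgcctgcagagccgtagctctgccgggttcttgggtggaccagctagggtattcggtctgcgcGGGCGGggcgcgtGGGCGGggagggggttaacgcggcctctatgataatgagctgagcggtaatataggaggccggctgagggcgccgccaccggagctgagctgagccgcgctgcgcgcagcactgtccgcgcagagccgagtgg
Sema4d: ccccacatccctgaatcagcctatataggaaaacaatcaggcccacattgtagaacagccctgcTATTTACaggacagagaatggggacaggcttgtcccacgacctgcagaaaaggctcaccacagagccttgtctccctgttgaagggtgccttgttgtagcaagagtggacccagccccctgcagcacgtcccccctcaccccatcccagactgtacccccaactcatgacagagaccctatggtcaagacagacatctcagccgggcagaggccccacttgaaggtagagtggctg

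Differences between lines of one label were large for some guidance genes. Among the 37 tested, Nrp2, the neuropilin that binds Sema3f, had the largest. Nrp2 was chosen for this description after its values were seen. It read 29.9, 68.8 and 46.3 in the lines labelled FoxO-null and 22.1, 161 and 143 in those labelled wild-type. Wild-type 1 was the lowest of the 6 arrays and wild-type 2 and 3 were the highest. Its SD between lines within a group was 1.09 on the log2 scale, above that of 99.3% of all genes tested. The median gene had 0.24 and the median of the 37 was 0.22. The log2 fold change was -0.77 ± 0.56 (limma adjusted p 0.677) with all arrays and -1.60 without wild-type 1 (limma adjusted p 0.103), the smallest for any guidance gene under any alternative. With the replicate number as a block, its unadjusted p was under 0.05 (limma adjusted p 0.441). All 4 Nrp2 probe sets were negative, and each had wild-type 2 and 3 above wild-type 1.

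Markers of midbrain, hindbrain and spinal cord varied between the same lines, most of them near background. The mean level of the 11 measured genes of that list, relative to the mean of the 6 lines, was -0.25, 0.044 and -0.051 on the log2 scale in lines 1 to 3 labelled FoxO-null, and -0.34, 0.29 and 0.30 in lines 1 to 3 labelled wild-type. The order was not shared by all: Hoxa5 read 100.5, 85.4 and 82.0 and Pax3 29.7, 24.1 and 11.7 in lines 1 to 3 labelled wild-type. Of these 11 genes 2 were above background on all arrays and Hoxa2, Hoxb2, Hoxb5 and Hoxc8 on none, and their part in the Nrp2 values was not tested. Other regional lists varied between the lines as well, in other orders. On the same scale, the dorsal telencephalon list was at 0.20, -0.29 and 0.16 in lines 1 to 3 labelled wild-type. Of its 7 measured genes 3 were above background on all arrays, Emx2, Lhx2 and Pax6. In lines 1 to 3 labelled wild-type, Emx2 read 230, 119 and 108, Lhx2 221, 149 and 118, and Pax6 118, 92.5 and 117. The ventral telencephalon list was at 0.52, 0.078 and -0.22 in those lines, and 0 of its 6 measured genes were above background on all arrays. Nrp1, the partner of Sema3a, varied less, with signals of 70.5, 83.1 and 60.4 in the lines labelled FoxO-null and 80.8, 67.3 and 107 in those labelled wild-type. Sema3f itself stood at 25.8, 29.1 and 31.2 in the lines labelled FoxO-null, against 26.0, 32.5 and 80.1 in those labelled wild-type, and was high on wild-type 3 alone.

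**Figure D3:**
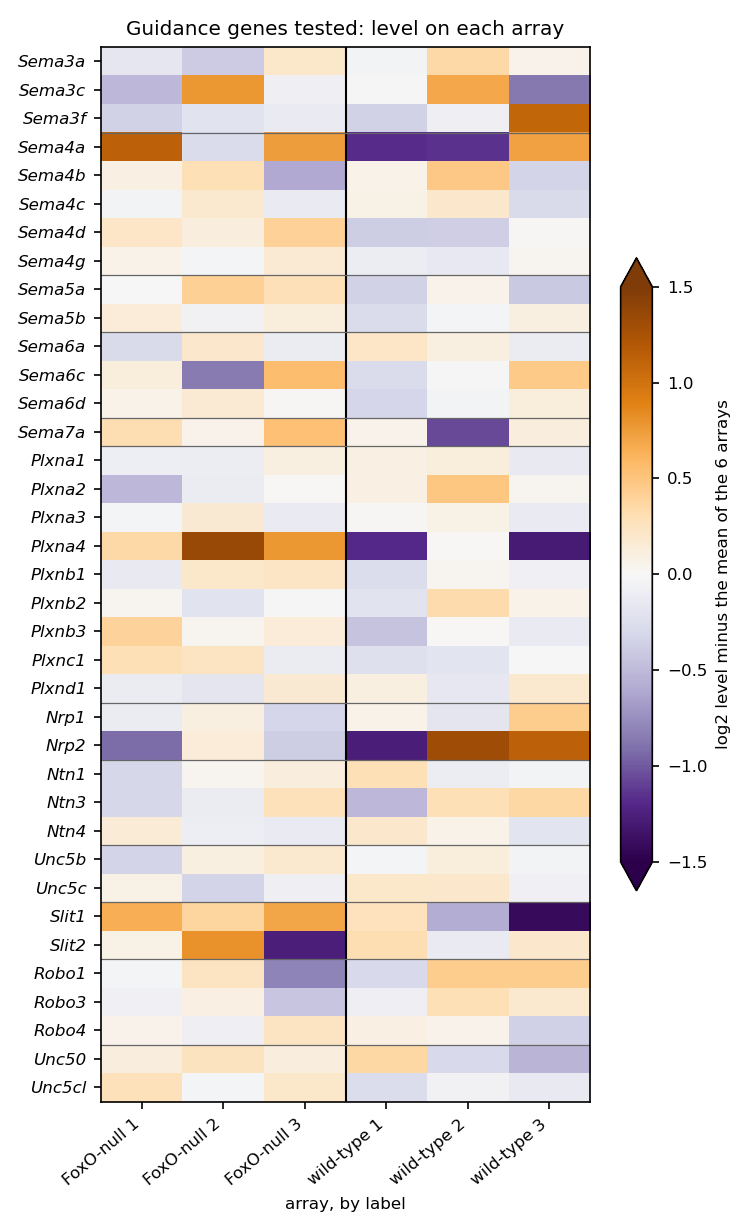
Log2 level of the 37 tested genes on each array, relative to the gene's mean over the 6 arrays (colour; colours saturate at 1.5), with horizontal lines between role groups. Plxna4 and Slit1 are above their mean in all 3 lines labelled FoxO-null, and Nrp2 is high in wild-type 2 and wild-type 3 and low in wild-type 1.

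Partners of these cues were read from a list of 68 co-receptors, other ligands and cytoplasmic effectors. Of the 64 tested, 0 passed over all genes in limma (smallest adjusted p 0.179), and 6 had an unadjusted p under 0.05, or 9.38% against 10.2% of all genes. The median difference of the 64 was 0.081 on the log2 scale, against 0.0099 over all genes. Of the 64, 41 were above 0, as were 6555 of all 12663 genes. The groups were apart in 12 of the 64 (18.8%, against 16.0% of all genes). In 9 of them the lines labelled FoxO-null were higher (14.1%, against 8.08%) and in 3 lower (4.69%, against 7.93%). The 6 at an unadjusted limma p under 0.05 were Rras, Rnd2, Neo1, Rgma and Vegfa, with higher signals in the lines labelled FoxO-null, and Tubb3, with lower ones.

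Rras, a small GTPase that plexins switch off, read 516, 438 and 425 in the lines labelled FoxO-null and 217, 345 and 272 in those labelled wild-type (0.73 ± 0.17, limma adjusted p 0.179). Rnd2, of a GTPase family that binds plexins, read 522, 525 and 487 in the lines labelled FoxO-null, against 305, 249 and 410.1 in those labelled wild-type (0.69 ± 0.16, limma adjusted p 0.196). Neither gene's groups overlapped, and both kept an unadjusted p under 0.05 in each fit that left out 1 array. Neo1 encodes neogenin, a receptor of netrins and of repulsive guidance molecules. It read 497, 514 and 352 in the lines labelled FoxO-null, against 305, 311 and 290.3 in those labelled wild-type (0.56 ± 0.15, limma adjusted p 0.240). Rgma, a neogenin ligand, read 774, 812 and 606 in the lines labelled FoxO-null and 338.5, 591.5 and 481 in those labelled wild-type (0.65 ± 0.19, limma adjusted p 0.270). The groups were apart for this receptor and this ligand as well, by a narrow margin for Rgma.

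Vegfa, a growth factor that also binds neuropilins, overlapped, with 1367, 1568 and 1441 in the lines labelled FoxO-null and 683, 1478 and 1008 in those labelled wild-type (0.53 ± 0.22). Its log2 fold change was 0.25 without wild-type 1 and 0.81 without wild-type 2, and the unadjusted p of Vegfa and of Tubb3 stayed under 0.05 in 2 of the 6 fits that left out 1 array. Tubb3, a tubulin of neurons reported to bind netrin receptors, read 27.5, 31.1 and 39.6 in the lines labelled FoxO-null and 62.9, 58.2 and 42.1 in those labelled wild-type (-0.64 ± 0.27, limma adjusted p 0.455). Its groups were apart, with line 3 of each label close together. Met and Itga1 were below the filter on low signals, and 2 genes of the list were not analysed here.

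**Figure D4:**
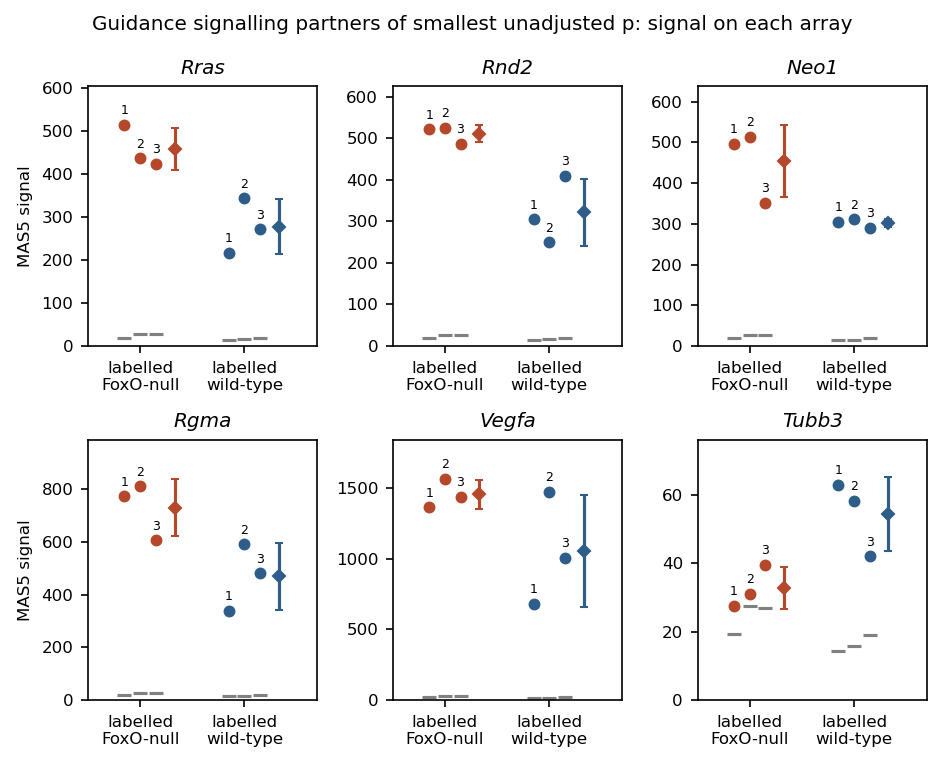
MAS5 signal on each array (linear axis from 0) for the 6 partner genes at an unadjusted limma p under 0.05. Numbered points are lines 1 to 3, diamonds with bars are mean ± SD (n = 3), and grey dashes are each array's background. Rras, Rnd2, Neo1 and Rgma have all lines labelled FoxO-null above all lines labelled wild-type, Tubb3 has them below, and Vegfa overlaps.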

How the data were processed

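Total RNA from 6 lines was hybridised to 1 array each. Per the submitters' processing notes the authors used MAS5 (version not given), and the deposited numbers are linear intensity values. The mean signal after trimming 2% of values at each end was 100.0 on every array, and array medians lay between 25.5 and 32.8. No value column was left out. Of 45101 probe sets, 64 were controls, 34945 had 1 gene, 932 several and 9160 none, and a gene's level is that of its probe set with the highest mean signal. Symbols differed from the mouse gene table in 0 cases.

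Values were analysed as log2(signal + 5.94), where the added constant is the 20th percentile of the signals. It understates changes of weak genes. Genes with a mean log2 value under the 40th percentile of non-control probe sets were left out. The 2 groups were compared over 12663 genes with limma 3.58.1 (lmFit and eBayes with an intensity trend) in R 4.3.3, two-sided, with Benjamini-Hochberg adjustment, and the procedure was tested on simulated data. Probe sets were fitted the same way over all 45037 non-control ones, without the filter. The highest of 27 Bacillus control probe sets was taken as an array's background. The number of arrays limits the precision.

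The members and gene lists were chosen with earlier results of these data known. Values on every array are given for the 8 members of smallest p, the brightest of each role group, and the partners at an unadjusted p under 0.05. Nrp1, Sema3f and the dimmer probe sets were added after their values were seen. Other offsets, filters, scalings, probe set rules, a block for the replicate number and leaving out each array were tried.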

Additional observations from a re-analysis of the deposited data

How the results depend on the processing

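No guidance gene and no partner gene passed after adjustment under any of the 15 alternatives (9 other settings and 6 fits that each left out 1 array). The smallest adjusted p was 0.103 for a guidance gene and 0.056 for a partner, Rnd2. The count of guidance genes at an unadjusted limma p under 0.05, 5, was 3 with median centring of the arrays, 8 with the mean of all probe sets, and 2 to 5 when 1 array was left out: 2 without FoxO-null 1, 3 without FoxO-null 3 and 3 without wild-type 2. Matching counts over all genes are given below for some of these settings only, and not for the mean of all probe sets. Changes in the count are therefore not read as results about guidance genes. Over all genes, the 5 that passed limma became 1 with an offset of 1, 1 with no filter on low signals, 1 with quantile normalization, 0 with median centring (1047 unadjusted), 1 with the mean of all probe sets, 0 with no intensity trend (1107 unadjusted), and 0 to 11 when 1 array was left out. The lowest was without FoxO-null 1 and the highest without wild-type 3. The count at an unadjusted p under 0.05 was 1292 and ran from 812 without FoxO-null 1 to 1320 without wild-type 3. Of 372 log2 fold changes of 25 named genes under the alternatives, 366 kept their sign and 6 turned, all where 1 array was left out: Plxnb2 (-0.26 to 0.0038, the high end without wild-type 2), Ntn1 (-0.19 to 0.021, 0.021 with FoxO-null 1 left out, 0.012 with wild-type 1 left out), Unc5b (-0.14 to 0.12, 0.12 with FoxO-null 1 left out, 0.013 with wild-type 2 left out) and Slit2 (-0.72 to 0.31, the high end without FoxO-null 3). The groups share replicate numbers, but deviations of same-numbered lines correlated at 0.023, 0.092 and 0.12, so the numbers were not taken as pairs. With the replicate number as a block, 6 guidance genes (Nrp2 joining the 5) and 8 partners had an unadjusted limma p under 0.05. The share of all genes at that p with the block is not given here, so neither count is read as a result about these genes. At the stricter adjusted p under 0.05, 6 of all genes passed with the block. Of the 6 lines, 5 correlated best with their own number, the exception being wild-type 1. Each correlation serves a line of each label and all lie between -0.15 and 0.12, so these picks are not separate evidence. The design names no pairs, and whether the lines are paired is not known. Genes near background, Plxna4, Slit1 and Sema4a among them, are limited by signal over background.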
